A study of Mus musculus with 18 samples.

Results

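Ribosome assembly genes that Myc is known to drive were followed through drug treatment and recovery of Myc-driven mouse B-cell lymphomas. The set had 39 genes, given by name for their roles in making ribosomes, with earlier results of these data known. A gene entered when an array probe set carried its symbol alone, and the probe set with the highest mean signal stood for it. That gave 38 of the 39, out of 18194 genes named on the array. Mrto4 was not analysed here, because the probe set that names it also names other genes. On all 17 arrays the 38 genes lay at or above 4.86, the median of all log2 values, so none was lost to the filter on low signal.

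The cells were primary lymphomas taken from lymph nodes of Eµ-myc mice on a C57/Bl6 background, in which an immunoglobulin heavy-chain enhancer drives Myc in B cells. Every group, the untreated cells included, lacked Suv39h1, a histone H3 lysine 9 methyltransferase, and carried 2 retroviral genes, Bcl2 against apoptosis and Suv39h1-ERT2, a fusion that 4-hydroxytamoxifen (4-OHT) activates. The 3 lymphomas, 4146, 4936 and 5043, gave 6 groups: untreated (n = 3), 5 days of Adriamycin, a DNA-damaging drug (ADR, n = 3), 5 days of ADR with 4-OHT (n = 3), and 3 outgrowth groups after 14 further days without drug. These were the ADR outgrowth (n = 2, since the array of lymphoma 5043 held no values and is labelled as failing quality control) and the outgrowth of ADR with 4-OHT, sorted by FACS into morphologically big (n = 3) and small (n = 3) cells. Each lymphoma gave 1 array per group, so the spread is that between 3 lymphomas. In the values as deposited, the per-lymphoma medians of a probe set were equal, so offsets between lymphomas had been taken out and a level is read relative to the median of its lymphoma. No group received 4-OHT alone, so the fusion protein and 4-OHT itself cannot be told apart. The total RNA was of a culture or a sorted fraction, where fewer cells of a type and less RNA per cell cannot be told apart.

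The arrays labelled ADR 4936, big 5043 and small 5043 stood apart from the rest. Their log2 signal for Xist, which silences the inactive X chromosome, was 11.97, 12.26 and 12.07, and on the other 14 arrays it ran from 2.78, on the array of ADR with 4-OHT from lymphoma 4146, to 8.99. Medians of the set for big against untreated or small cells are given with and without these arrays. So are those for ADR against untreated cells and ADR with 4-OHT against ADR, and some single-gene differences. Most other results that use these arrays are given only with them. Of 10 B-cell markers, 9 had a probe set, with a mean log2 signal between 6.76 and 8.78 over the arrays, and Vpreb1, of the pre-B-cell receptor, lay under 4.86 on all arrays of 5 groups. Of 8 T-cell markers, 6 had a probe set, with a mean between 3.83 and 5.13.

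Ribosome assembly starts in the nucleolus, where RNA polymerase I copies the ribosomal DNA into a long precursor RNA. Small nucleolar RNAs with their proteins modify that precursor, and separate groups of factors fold, cut and package it into the small and the large subunit. Myc binds to the promoters of many of these genes through the E-box, the letters CACGTG, and raised ribosome production is a known feature of Eµ-myc B cells. The genes were grouped here by role: 5 of RNA polymerase I transcription, 8 of the small nucleolar ribonucleoproteins (snoRNPs), 5 nucleolar proteins with several roles, 8 of the small subunit and 13 of the large subunit, 12 of them with a value.

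Because the set is defined partly by Myc, the promoters were searched for CACGTG, which reads the same on both strands. RefSeq windows (GRCm38.p6) from 250 bases before to 50 bases after the transcription start were matched for 35 of the 39 genes, those other than Bop1, Fbl, Npm1 and Rrp12. A match lay in the window of 10 genes (28.6%), against 8.09% of all 27025 genes with a window of that length and 11.7% of the 9647 tested genes that had a window. In 4 of the 10 it lay upstream of the start, and these stretches are shown with the E-box in capitals, on the strand of the gene, because they carry the letters that Myc and its partner Max bind. The regions are chr1:34439678-34439743 (plus strand) for Imp4, chr6:125131793-125131858 (plus) for Nop2, chr16:13780454-13780519 (plus) for Rrn3 and chr11:93885767-93885816 (minus) for Utp18.
Imp4: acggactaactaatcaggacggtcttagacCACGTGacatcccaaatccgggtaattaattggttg
Nop2: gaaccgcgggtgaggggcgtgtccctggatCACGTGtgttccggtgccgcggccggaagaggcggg
Rrn3: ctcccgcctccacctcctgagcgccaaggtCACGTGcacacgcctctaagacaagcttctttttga
Utp18: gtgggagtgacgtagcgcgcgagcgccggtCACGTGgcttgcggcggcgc

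The match began 121 bases before the start in Imp4, 60 in Nop2, 20 in Utp18 and 215 in Rrn3, whose window held a further match nearer to the start. In Mybbp1a, Nle1, Pes1, Tsr1, Utp20 and Wdr43 the match lay downstream of the start, between 3 bases (Pes1) and 41 bases (Mybbp1a) after it. The 10 genes with the E-box and the 24 tested genes with a window that lacks it were described, with no test, by the medians of their log2 differences: -0.33 against -0.48 for big cells minus untreated cells, and 0.32 against 0.25 for ADR minus untreated cells. A match is a string of letters in this window, and Myc binding was not measured.

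By group mean, most of the 38 genes were lowest in the big outgrowth cells and highest after 5 days of ADR alone. The group with the lowest mean was the big cells for 30 of 38 genes, and the group with the highest mean was ADR for 26 of 38. The shares over all genes were not computed for these counts. The genes moved together, so the counts are not made of separate observations. Averaged over the 38 genes, the log2 signal in lymphomas 4146, 4936 and 5043 was 10.48, 9.83 and 10.27 in untreated cells. It was 10.68, 10.42 and 10.35 after ADR and 10.20, 10.29 and 10.29 after ADR with 4-OHT. In the small cells it was 10.19, 10.06 and 9.93, and in the big cells 9.83, 9.86 and 9.61. In lymphomas 4146 and 5043 the big cells were the lowest of the arrays, and in 4936 the untreated array was lower still. The ADR outgrowth was at 9.85 in lymphoma 4146 and 10.74 in lymphoma 4936, near the bottom of the first and at the top of the second.

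**Figure D1:**
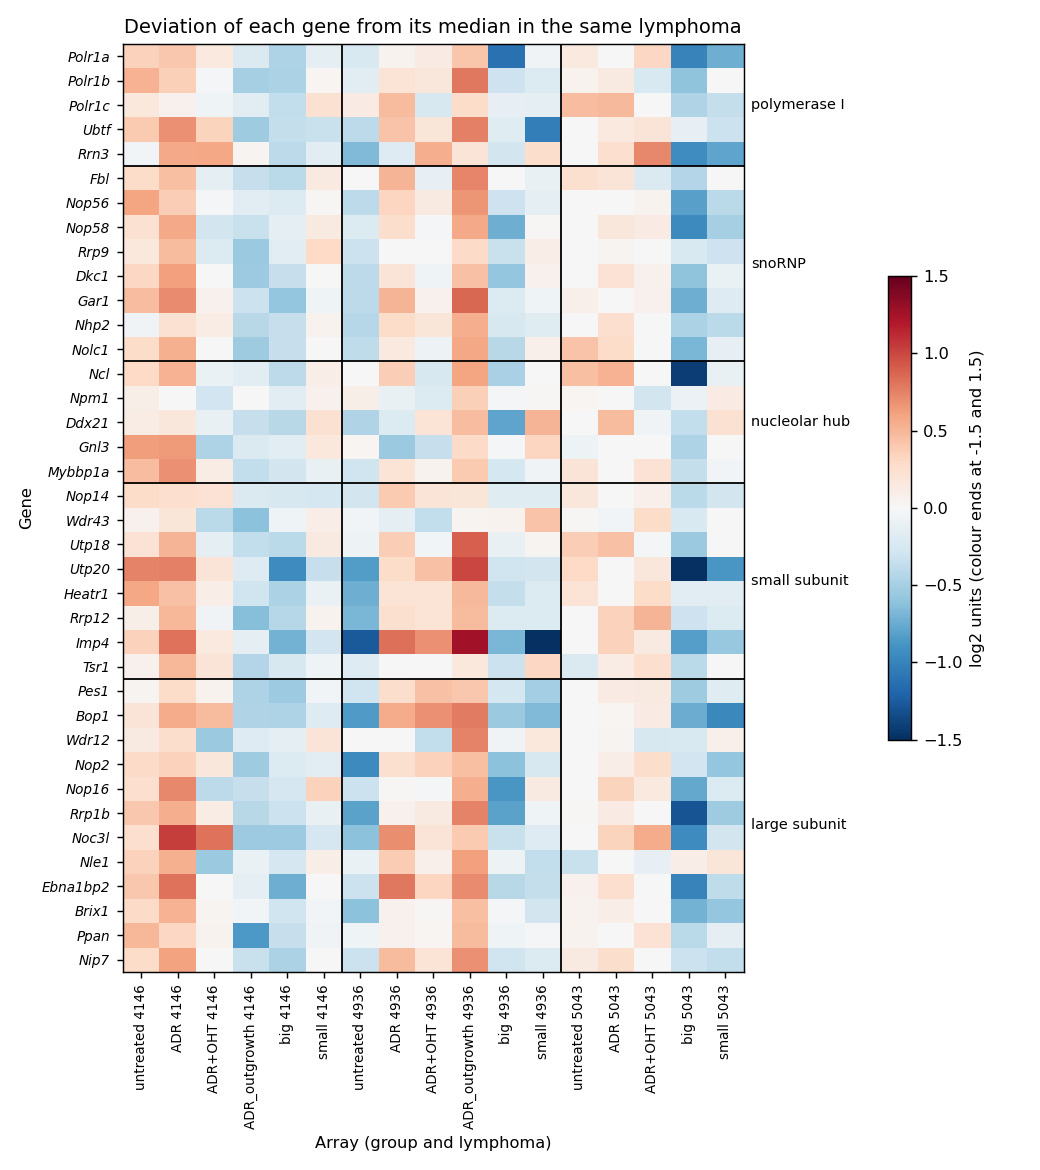
Deviation of each of the 38 genes (vertical axis, grouped by role) on each of the 17 arrays (horizontal axis, grouped by lymphoma) from the median of that gene in the same lymphoma, in log2 units by colour. The columns of the big cells are blue for 38, 36 and 37 of 38 genes in lymphomas 4146, 4936 and 5043, and the ADR outgrowth is blue for 37 genes in 4146 and red for 38 in 4936.

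Read against the median of the same lymphoma, 38, 36 and 37 of the 38 genes lay lower in the big cells of lymphomas 4146, 4936 and 5043. The map of deviations shows whole columns of 1 colour, and the genes moved together: over the 17 arrays the median correlation of a gene with the mean of the other 37 was 0.848, and that of a pair of the genes 0.709, against 0.0153 for all tested genes with the mean of the set. These correlations are descriptions over arrays that share lymphoma, culture and processing. Gar1 (0.967), Nop56 (0.955), Nip7 (0.954) and Rrp1b (0.953) followed the set most closely, and Npm1 (0.228), Wdr43 (0.288) and Gnl3 (0.434) least. Outside the set, the genes whose signal, centred within lymphoma, followed the mean of the set most closely over the 17 arrays were Gart (0.968), Ddx18 (0.966), Dnajc11 (0.961), Gpatch4 (0.961) and Parl (0.959).

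With 3 lymphomas a group, no single gene of the set passed the test. limma called 0 of 38 in each of the 8 comparisons at an adjusted p of 0.05 over 11897 genes. The background was 2.94% of all tested genes called for ADR with 4-OHT against untreated cells, 0.412% for big against untreated cells and 0% for the other 6 comparisons. A test for any difference among the 6 groups called 0 of 38, against 2.63% of all genes, and 7 of 38 (18.4%) had an unadjusted p under 0.05, against 26.9% of all genes. The lowest adjusted p of that test in the set was 0.0716. The median SE of a difference was 0.26 log2 units for a gene of the set, which makes the 95% interval reach 0.57 to each side. At that SE, a difference under about 0.57 has an interval that includes 0. Where the ADR outgrowth enters, the median SE was 0.30 or near it, and the interval was wider. The call of 0 for the test over 6 groups rested on single arrays: it became 12 of 38 without ADR outgrowth 4146, where 1254 of 11880 genes were called. It became 4 of 38 without ADR outgrowth 4936, beside 583 of 11875 genes, and 2 of 38 without untreated 4936, beside 600 of 11873 genes.

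**Figure D2:**
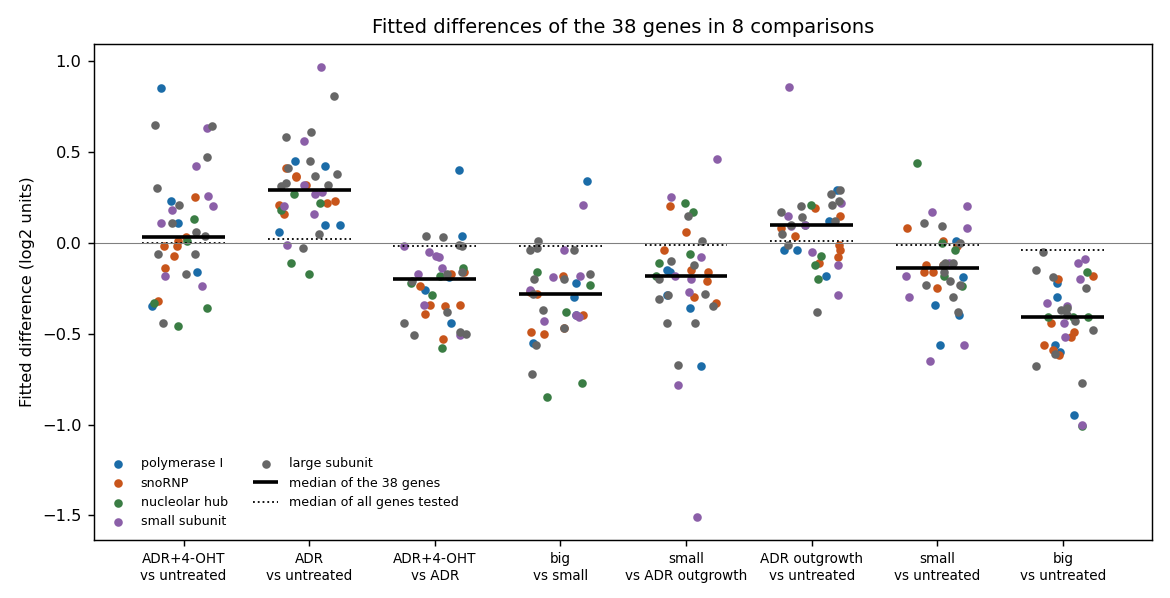
Fitted log2 difference (vertical axis) of each of the 38 genes, coloured by role, in the 8 comparisons (horizontal axis), with the median of the 38 genes as a thick line and that of all tested genes as a dotted line. For big against untreated cells all 38 points lie below 0 (median -0.41), and for ADR against untreated cells 34 of 38 lie above 0 (median 0.29).

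For big against untreated cells all 38 differences were below 0, with a median of -0.41 log2 units against -0.04 for all genes, and they ran from -1.01 (Ncl) to -0.05 (Nle1). At an unadjusted p under 0.05, 6 of 38 genes lay lower (15.8%, against 16.3% of all genes in either direction), and the lowest adjusted p was 0.114. The medians per lymphoma were -0.63, 0.02 and -0.62 in 4146, 4936 and 5043, so lymphoma 4936 did not share the shift. In all 3 lymphomas 16 of 38 genes were lower (42.1%), against 23.1% of all genes. Without lymphoma 4936 the median was -0.65 and 3 genes fell, at log2 differences of -1.77 for Utp20 (adjusted p = 0.0432), -1.1 for Ebna1bp2 (adjusted p = 0.0477) and -0.94 for Imp4 (adjusted p = 0.0477). In that fit 280 of all 11554 tested genes were called. Leaving out untreated 4936 alone also gave a median of -0.65, and leaving out untreated 4146 gave -0.25. Without the 3 arrays that stood apart the median was -0.39, with 37 of 38 below 0 and 0 called.

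For big against small cells, which came from the same cultures, 35 of 38 differences were below 0. The median was -0.28, against -0.02 for all genes, and it was -0.34, -0.14 and -0.31 in lymphomas 4146, 4936 and 5043. In all 3 lymphomas 24 of 38 genes were lower in the big cells (63.2%), against 23.3% of all genes, and 0 were higher in all 3. At an unadjusted p under 0.05, 4 of 38 were lower and 0 higher (10.5%, against 10.4% of all genes in either direction), a share near the background, and the lowest adjusted p was 0.223. Without the 3 arrays that stood apart the median stayed at -0.28, with 34 of 38 below 0, and it lay between -0.32 and -0.23 when any lymphoma or any array was left out.

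For ADR against untreated cells 34 of 38 differences were above 0, with a median of 0.29 against 0.02 for all genes. The medians per lymphoma were 0.23, 0.52 and 0.07. In all 3 lymphomas 22 of 38 genes were higher (57.9%), against 21.8% of all genes. At an unadjusted p under 0.05, 2 of 38 were higher and 0 lower (5.26%, below the 11.3% of all genes), and the lowest adjusted p was 0.374. The shift leaned on untreated 4936, the lowest array of its lymphoma: without that array the median was 0.04, with 23 of 38 above 0. Without the 3 arrays that stood apart, ADR 4936 among them, it was 0.35.

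Adding 4-OHT to ADR went with lower values. For ADR with 4-OHT against ADR alone 34 of 38 differences were below 0, with a median of -0.20 against -0.02 for all genes, and of -0.51, -0.12 and -0.05 per lymphoma. In all 3 lymphomas 18 of 38 genes were lower (47.4%), against 22% of all genes. At an unadjusted p under 0.05, 4 of 38 were lower and 0 higher (10.5%, against 12.5% of all genes), and the lowest adjusted p was 0.333. The median was -0.10 without ADR 4146, -0.29 without ADR 4936 and -0.26 without the 3 arrays that stood apart. Against untreated cells, ADR with 4-OHT had 22 differences above 0 and 16 below, with a median of 0.03 against 0.00, and 1 gene higher and 2 lower at an unadjusted p under 0.05 (7.89%, below the 19.2% of all genes). The lymphomas were split, at -0.33, 0.40 and 0.03, and the median was -0.22 without untreated 4936 and 0.21 without untreated 4146.

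The remaining comparisons involve the ADR outgrowth or the small cells. ADR outgrowth minus untreated cells had a median of 0.10, made of -0.61 in lymphoma 4146 and 0.89 in lymphoma 4936, with 0 of 38 at an unadjusted p under 0.05, against 4.49% of all genes. Small cells minus ADR outgrowth had a median of -0.18, made of 0.34 and -0.63, and 1 of 38 was lower at an unadjusted p under 0.05 (2.63%, against 13.4% of all genes). Small minus untreated cells had a median of -0.14, with -0.30, 0.25 and -0.34 per lymphoma and 0 of 38 at an unadjusted p under 0.05, against 8.3% of all genes. The lowest adjusted p values in these 3 comparisons were 0.999, 0.317 and 0.664. Without its array of lymphoma 4146 the ADR outgrowth was 0.61 above untreated cells, and without that of 4936 its median was -0.48. For small cells minus ADR outgrowth those values were -0.71 and 0.36. Small minus untreated cells had -0.42 without untreated 4936 and 0.02 without untreated 4146.

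None of the genes at the ends of these 3 comparisons passed the test. Ppan, a large-subunit factor, was at 10.43, 9.86 and 9.98 in untreated cells and at 9.07 (4146) and 10.41 (4936) in the ADR outgrowth. It had the lowest difference of ADR outgrowth from untreated cells (-0.38, SE 0.31, adjusted p = 0.999), and Imp4 the highest (0.86, SE 0.58, adjusted p = 0.999). Tsr1 was at 10.67, 11.04 and 10.73 in small cells and at 10.29 and 10.89 in the ADR outgrowth, a difference of 0.25 (SE 0.22, adjusted p = 0.627). For small minus untreated cells the lowest genes were Imp4 (-0.65, SE 0.51, adjusted p = 0.742) and Ubtf (-0.56, SE 0.32, adjusted p = 0.671), both lower in 3 of 3 lymphomas. Dimmer probe sets of Imp4 gave 0.53 (SE 0.32) and -0.28 (SE 0.41). Comparisons that share untreated cells, ADR outgrowth or small cells share those arrays and are not independent of each other.

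The plot of list medians sets the set beside ribosomal protein genes and mitosis genes on the same arrays.

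**Figure D3:**
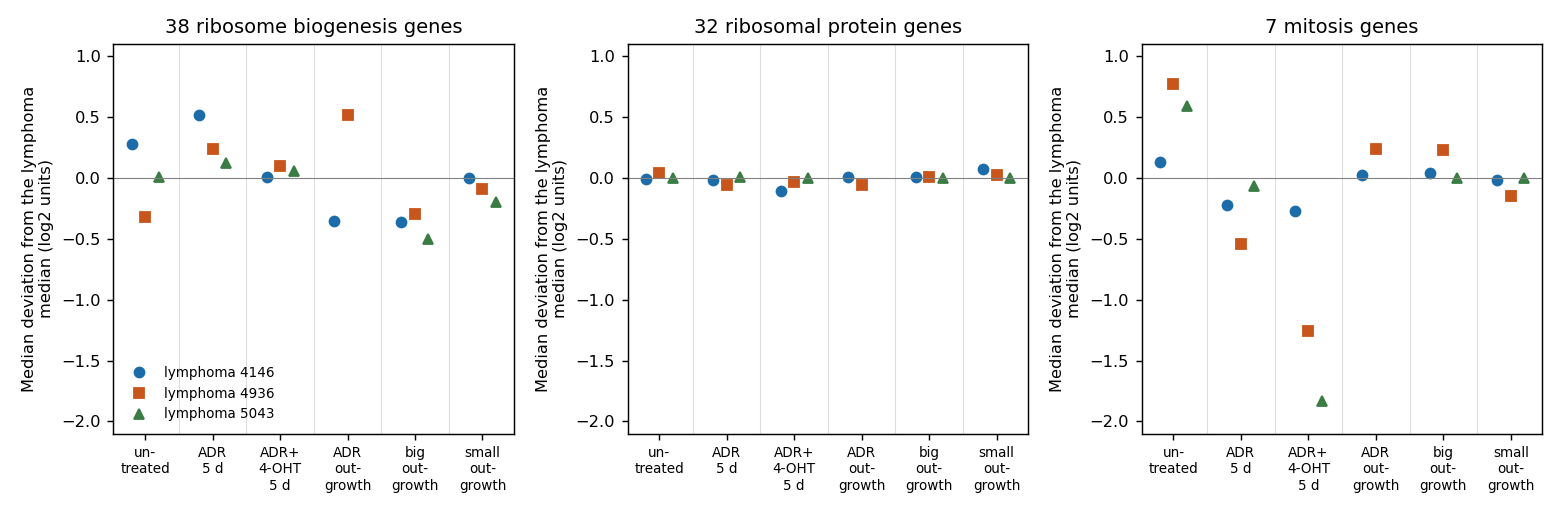
Median deviation from the lymphoma median (vertical axis, log2 units) on each array, by group (horizontal axis) and lymphoma (symbol), for the 38 ribosome biogenesis genes, 32 ribosomal protein genes and 7 mitosis genes. The 38 genes lie at -0.36, -0.30 and -0.50 in the big cells, where the mitosis genes lie at or above 0, and the ribosomal protein genes stay between -0.11 and 0.07 throughout.

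Genes of RNA polymerase I transcription had a median of -0.56 for big against untreated cells. Polr1a encodes the largest subunit of the enzyme and lies on chromosome 6 from 71909053 to 71979435. Its log2 signal in lymphomas 4146, 4936 and 5043 was 8.83, 8.25 and 8.63 in untreated cells, 8.34, 8.43 and 7.75 in small cells and 8.02, 7.37 and 7.48 in big cells. The big cells were below the untreated cells of all 3 lymphomas, with no overlap, and below the small cells of the same lymphoma each time. The difference of big from untreated cells was -0.95 (SE 0.24, 95% interval -1.48 to -0.41, adjusted p = 0.114, lower in 3 of 3 lymphomas). Without the 3 arrays that stood apart it was -0.87 (adjusted p = 0.339). A second Polr1a probe set gave -0.68 (SE 0.19) and a dimmer probe set -0.04 (SE 0.21), so the sizes differed between probe sets.

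Polr1b encodes the second-largest subunit of polymerase I. Its signal was 9.60, 8.90 and 9.13 in untreated cells and 8.6, 8.76 and 8.48 in big cells, again without overlap, and the difference was -0.60. Polr1c, a subunit shared by polymerases I and III, had -0.56 (adjusted p = 0.212). Ubtf encodes UBF, which binds the ribosomal DNA and keeps it open. At 9.15, 8.36 and 8.75 in untreated cells and 8.39, 8.58 and 8.63 in big cells, its groups overlapped and the difference was -0.22. It was also the gene of the set with the highest difference of big from small cells, 0.34 (SE 0.32, adjusted p = 0.801), which came mostly from lymphoma 4936 (0.86). A dimmer Ubtf probe set gave -1.05 (SE 0.52) against small cells and -1.79 (SE 0.52) against untreated cells, so the Ubtf values rest on the probe set.

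Rrn3, which encodes TIF-IA, the factor that recruits polymerase I in step with growth signals, was highest after ADR with 4-OHT. It lies on chromosome 16 from 13780699 to 13814841. Its log2 signal was 9.36, 8.74 and 9.40 in untreated cells, 9.98, 9.21 and 9.66 after ADR and 9.98, 9.95 and 10.12 after ADR with 4-OHT. The arrays of ADR with 4-OHT lay above all untreated arrays. The difference was 0.85 (SE 0.29, 95% interval 0.22 to 1.47, adjusted p = 0.13, higher in 3 of 3 lymphomas), the highest of the 38 in that comparison, and 0.85 with an adjusted p of 0.0586 without the 3 arrays that stood apart. In big cells Rrn3 was at 9.02, 9.12 and 8.48, overlapping the untreated cells. For ADR with 4-OHT against ADR alone it was the highest of the 38 again (0.40, SE 0.29, adjusted p = 0.585).

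**Figure D4:**
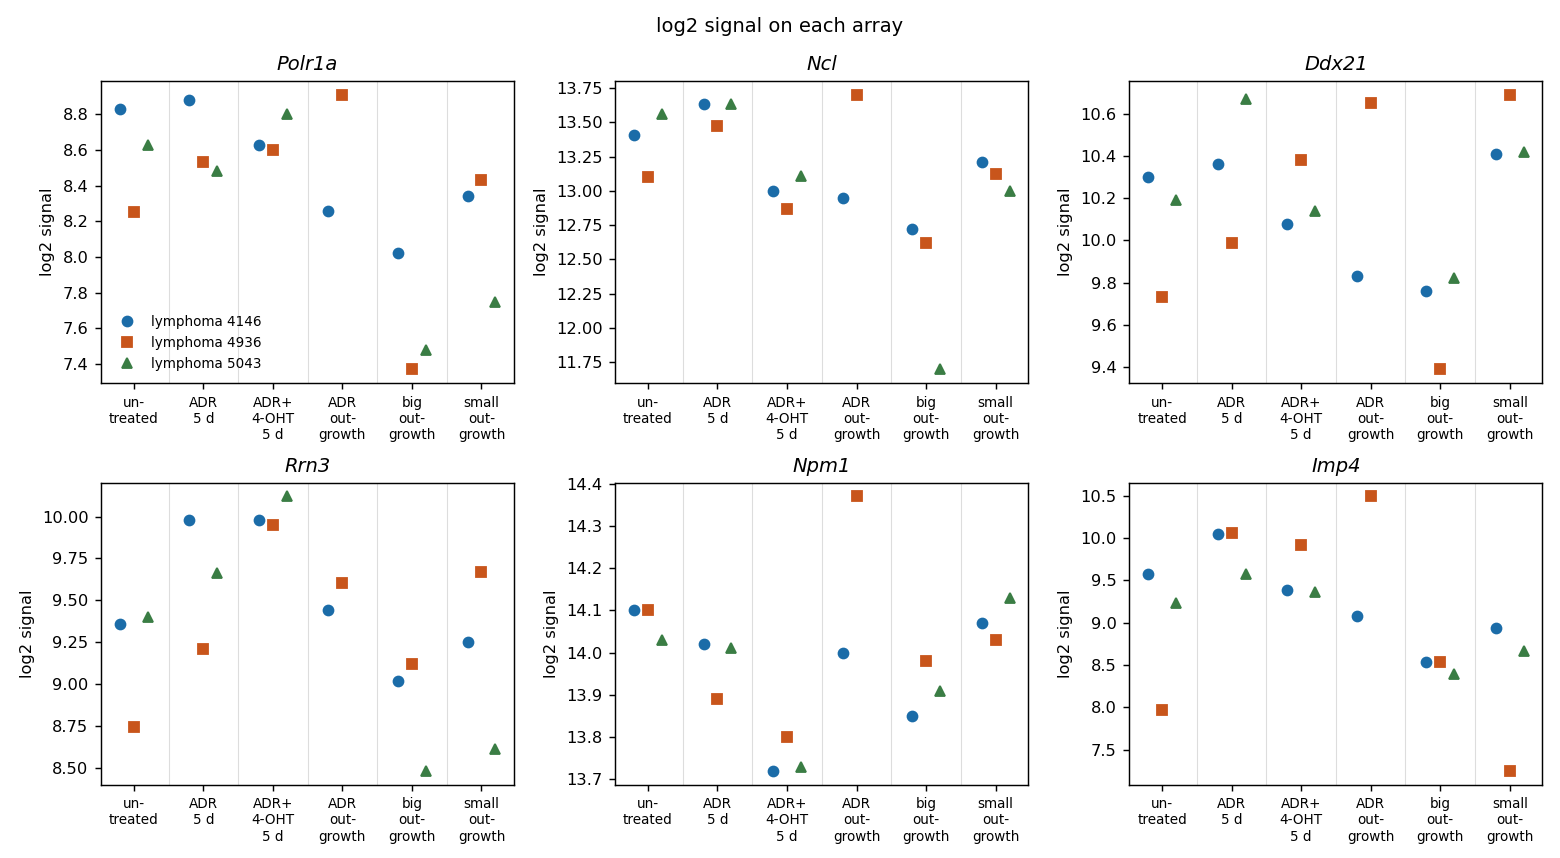
log2 signal (vertical axis) of 6 genes on each array, by group (horizontal axis) and lymphoma (symbol); each panel has its own scale. In big cells Polr1a and Ncl lie below every untreated array, Ddx21 lies below every small-cell array, and Rrn3 lies above every untreated array after ADR with 4-OHT.

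The snoRNP genes had a median of -0.50 for big against untreated cells and -0.34 for big against small cells, with all 8 below 0 in each. Fbl encodes fibrillarin, the methyltransferase of the box C/D snoRNPs. Its signal was 12.64, 12.69 and 12.37 after ADR and 12.06, 12.07 and 11.97 after ADR with 4-OHT, 2 groups that did not overlap. The difference was -0.53 (SE 0.23, 95% interval -1.03 to -0.04, adjusted p = 0.358, lower in 3 of 3 lymphomas). Nop58, a core protein of the same particles, had -0.62 for big against untreated cells (adjusted p = 0.284), and its partner Nop56 had -0.52. Of the box H/ACA particles, which guide pseudouridylation, the pseudouridine synthase gene Dkc1 had -0.49, Gar1 -0.56 and Nhp2 -0.20. Nolc1, a chaperone of the snoRNPs, had -0.59, and Rrp9, a protein of the U3 particle, -0.18. For ADR against untreated cells the 8 genes ran from 0.16 to 0.41.

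Among the nucleolar proteins with several roles, Ncl had the lowest difference of big from untreated cells of all 38 genes. Ncl encodes nucleolin, which binds precursor RNA and chromatin of the ribosomal DNA, and lies on chromosome 1 from 86344719 to 86359455. Its signal was 13.41, 13.10 and 13.56 in untreated cells, 13.21, 13.12 and 13.00 in small cells and 12.72, 12.62 and 11.70 in big cells. The big cells were below every untreated and small-cell array, and big 5043, an array that stood apart, was lowest. The difference from untreated cells was -1.01 (SE 0.26, 95% interval -1.59 to -0.43, adjusted p = 0.117, lower in 3 of 3 lymphomas) and -0.63 (adjusted p = 0.397) without the 3 arrays. The other 4 Ncl probe sets gave differences from -1.77 to -0.21. Against small cells it was -0.77 (SE 0.26, adjusted p = 0.335), and -0.50 without those arrays. After ADR Ncl was at 13.63, 13.47 and 13.63 and after ADR with 4-OHT at 13.00, 12.87 and 13.11, again without overlap, with a difference of -0.58 (SE 0.26, adjusted p = 0.394).

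Npm1 encodes nucleophosmin, a chaperone that shuttles ribosomal particles out of the nucleolus, and varied least of the 38, with an SD within lymphoma of 0.167 against a median of 0.381 for the set and 0.342 for all genes. Its signal was 14.10, 14.10 and 14.03 in untreated cells, 13.72, 13.80 and 13.73 after ADR with 4-OHT and 13.85, 13.98 and 13.91 in big cells. ADR with 4-OHT was lowest and did not overlap the untreated cells, and the difference was -0.33 (adjusted p = 0.154). A dimmer Npm1 probe set gave -0.29 (SE 0.15) there. For big against untreated cells the difference was -0.16 (SE 0.12), and -0.37 (SE 0.15) on the dimmer probe set.

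Ddx21, an RNA helicase of the nucleolus that links polymerase I and II transcription to precursor processing, had the lowest difference of big from small cells of the 38. It lies on chromosome 10 from 62580247 to 62602298. Its signal was 10.41, 10.69 and 10.42 in small cells and 9.76, 9.39 and 9.82 in big cells, with untreated cells, at 10.30, 9.73 and 10.19, between the big and the small cells of the same lymphoma. The difference of big from small cells was -0.85 (SE 0.25, 95% interval -1.39 to -0.31, adjusted p = 0.223, lower in 3 of 3 lymphomas). Without the 3 arrays that stood apart it was -0.97 (adjusted p = 0.381). Ddx21 was also the gene with the highest difference of small from untreated cells (0.44, SE 0.25, adjusted p = 0.664), where a dimmer probe set gave -0.04 (SE 0.32).

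Gnl3 encodes nucleostemin, a nucleolar GTPase of proliferating cells. Its signal was 12, 11.40 and 11.28 in untreated cells, 12, 10.80 and 11.37 after ADR, 10.90, 11.02 and 11.37 after ADR with 4-OHT and 11.21, 11.33 and 10.90 in big cells. These groups overlapped, and lymphoma 4146 gave most of the difference of -0.46 between ADR with 4-OHT and untreated cells (-1.10 there). Mybbp1a, a nucleolar protein that binds the Myb transcription factor, had -0.41 for big against untreated cells.

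Genes of small-subunit assembly had a median of -0.34 for big against untreated cells, and the members that varied most are among them. Imp4 encodes a protein of the U3 particle and had the highest SD within lymphoma, 0.882. Its signal was 9.58, 7.97 and 9.23 in untreated cells, 10.05, 10.06 and 9.57 after ADR, and 8.94, 7.25 and 8.66 in small cells. The ADR outgrowth was at 9.08 and 10.49, and the big cells at 8.53, 8.54 and 8.40. The arrays untreated 4936 and small 4936 were by far the lowest. The difference of ADR from untreated cells, the highest of the 38 at 0.97 (SE 0.51, adjusted p = 0.479), was 2.09 in lymphoma 4936 and 0.47 and 0.34 in the others. That of small cells from the ADR outgrowth, the lowest of the 38 at -1.51 (SE 0.58, adjusted p = 0.317), was -0.14 in 4146 and -3.24 in 4936.

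Utp20, a scaffold of the early particle, was at 9.67, 8.09 and 9.24 in untreated cells and 8, 8.64 and 7.37 in big cells. The groups overlapped, because lymphoma 4936 went the other way (0.55, against -1.67 and -1.87), and the difference was -1 (SE 0.42, adjusted p = 0.279). Heatr1, Nop14 and Utp18, further scaffold proteins, had -0.35, -0.33 and -0.52 for big against untreated cells. For Utp18, the arrays of ADR (10.41, 10.27 and 10.34) and of ADR with 4-OHT (9.76, 9.86 and 9.87) did not overlap, at a difference of -0.51 (SE 0.25, adjusted p = 0.428). Tsr1 and Rrp12, which act late in small-subunit maturation and export, had -0.20 and -0.11. Wdr43, another protein of the early particle, had -0.09, and it was the gene with the highest difference of small cells from the ADR outgrowth (0.46, adjusted p = 0.447). A dimmer Wdr43 probe set gave -0.27 (SE 0.26) there.

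Genes of large-subunit assembly had a median of -0.39 for big against untreated cells. Pes1, Bop1 and Wdr12 form the PeBoW complex, and they had -0.36, -0.37 and -0.19. On their brightest probe sets they did not share a direction after ADR with 4-OHT, at 0.30, 0.65 and -0.44 against untreated cells. A dimmer Wdr12 probe set went the other way, at 0.74 (SE 0.37), so the split rests on the probe set. For the brightest Wdr12 probe set the arrays of ADR with 4-OHT (9.53, 9.72 and 9.85) lay below all untreated arrays (10.23, 10.09 and 10.08, adjusted p = 0.249). For Bop1 (9.11, 9.33 and 8.76 against 8.83, 7.79 and 8.64) the groups overlapped. Ebna1bp2, a factor of early large-subunit particles, was at 10.93, 10.21 and 10.59 in untreated cells and 9.80, 10.11 and 9.53 in big cells, without overlap, at -0.77 (SE 0.25, adjusted p = 0.176). Nop16, another large-subunit factor, had -0.61, and it was at 10.14, 9.93 and 9.59 in small cells and 9.55, 8.93 and 9.03 in big cells, at -0.72 (SE 0.29, adjusted p = 0.393).

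Noc3l, known from yeast for both ribosome export and replication, was at 7.92, 7.06 and 7.67 in untreated cells and 8.71, 8.37 and 8 after ADR, with no overlap, at 0.81 (SE 0.29, adjusted p = 0.374). Of the rest, Rrp1b had -0.68, Ppan -0.43, Nip7 -0.40, Brix1 -0.25, Nop2, an RNA cytosine methyltransferase, -0.15 and Nle1 -0.05 for big against untreated cells. Dimmer Rrp1b probe sets gave -0.12 (SE 0.26) and -0.08 (SE 0.20) there, so its value rests on the probe set.

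The choice of probe set mattered for single genes. Of 25 genes with several tested probe sets, 2 (Heatr1 and Noc3l) had probe sets of opposite sign for big against untreated cells, 5 for big against small cells, 8 for ADR against untreated cells, 5 for ADR with 4-OHT against ADR and 11 for ADR with 4-OHT against untreated cells. The count was 12 for small cells against ADR outgrowth, 11 for ADR outgrowth against untreated cells and 11 for small against untreated cells. When each of 21220 probe sets was tested on its own, a choice made after the data were seen, 2 of the 72 that belong to the set passed, both for ADR with 4-OHT against untreated cells. A second Noc3l probe set rose by 0.96 (SE 0.20, adjusted p = 0.0352), the direction of the brighter one (0.64). An Rrp1b probe set fell by 0.86 (SE 0.20, adjusted p = 0.0488). It was the dimmest of 3, and the brighter 2 gave 0.21 and -0.35.

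Other genes of ribosome assembly, outside the set, had medians close to those of the 38. Of 89 tested, 0 were called for big against untreated cells, with a median of -0.42, 82 below 0 and 28 lower at an unadjusted p under 0.05. Among them, Utp6, of the small-subunit processome, had -1.26 (SE 0.28, adjusted p = 0.0842) and Rpf1, a large-subunit factor, -0.95 (SE 0.21, adjusted p = 0.0842). For big against small cells the median was -0.30, with 74 of 89 below 0. For ADR with 4-OHT against untreated cells the median was 0.01, and 1 of 89, the processome gene Utp11, fell by 0.61 (SE 0.14, adjusted p = 0.0418). Ribosomal protein genes, which make up the ribosome itself, had medians close to 0. The medians of the 32 tested were 0.01 for big against untreated cells, -0.01 for big against small cells and -0.05 for ADR with 4-OHT against untreated cells, with 0 called. Their median SE was 0.11, and near-identical pseudogenes can share their signal.

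Myc targets outside ribosome assembly had a median of -0.34 for big against untreated cells over 40 genes tested, with 36 below 0 and 0 called. The median was -0.38 for ADR with 4-OHT against ADR alone, with 36 of 40 below 0 and 0 called. Against untreated cells it was -0.19, and 1 of 40 fell, Shmt2, the mitochondrial serine hydroxymethyltransferase, by 1.13 (SE 0.20, adjusted p = 0.0209). Myc itself, for which the array cannot separate the transgene from the endogenous gene, was at 11.78, 11.83 and 11.72 in untreated cells. It was at 11.66, 10.94 and 11.84 after ADR, 11.66, 11.59 and 12.09 after ADR with 4-OHT, 12, 11.61 and 11.37 in big cells and 12.13, 12.53 and 11.68 in small cells, with 11.42 and 11.97 in the ADR outgrowth. Each group overlapped the untreated cells or differed from them without passing the test, and big minus untreated cells was -0.11 (SE 0.29, adjusted p = 0.876). Of the 9 genes of Myc and its partners, Mxd4, which competes with Myc for Max, was the 1 that passed, rising by 1.35 after ADR with 4-OHT against untreated cells (SE 0.27, adjusted p = 0.0288).

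For mitosis genes, chosen as a reference for cycling cells, the values differed from those of the set. For ADR with 4-OHT against untreated cells, 5 of 7 fell, where 2.94% of all genes were called in either direction. The list median was -1.65, while the 38 genes had a median of 0.03. The mitosis medians were -0.41, -2.03 and -2.45 in lymphomas 4146, 4936 and 5043, so the fall was small in 4146. Nuf2, a kinetochore gene, fell by 1.95 (SE 0.32, adjusted p = 0.0157). For big against untreated cells the mitosis median was -0.31 with 0 called, and for big against small cells it was 0.17, opposite in sign to the -0.28 of the 38 genes. In the comparison of ADR with 4-OHT and untreated cells, limma called 0 of all genes without lymphoma 4146 or without lymphoma 5043, and 6 of 11554 without lymphoma 4936.

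Fibroblast and macrophage markers had higher means than in untreated cells both in big cells, where the set was low, and after ADR, where it was high. Of 12 fibroblast markers, all with a probe set, the mean log2 signal was 6.47 to 7.36 in big cells and 4.85 to 5.48 in small cells. It was 4.32 to 4.73 in untreated cells, 5.55 to 6.83 after ADR and 4.68 to 5.44 after ADR with 4-OHT. In the ADR outgrowth, where the set was low in lymphoma 4146 and high in 4936, it was 4.65 and 4.25. Of the 7 tested, 4 rose in big against untreated cells, among them Bgn, the matrix proteoglycan biglycan, by 5.61 (SE 0.65, adjusted p = 0.0134) and the fibronectin gene Fn1 by 5.55 (SE 0.64, adjusted p = 0.0134). In that comparison 0 of all genes were called without untreated 4146 or untreated 4936. Pdgfrb and Postn lay under 4.86 on every array of big cells, and Pdgfrb, Thy1 and Postn on every array of ADR. The summed linear signal of the 12 markers ran from 4353 to 14791 in big cells, 516 to 1142 in small cells and 259 to 461 in untreated cells.

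**Figure D5:**
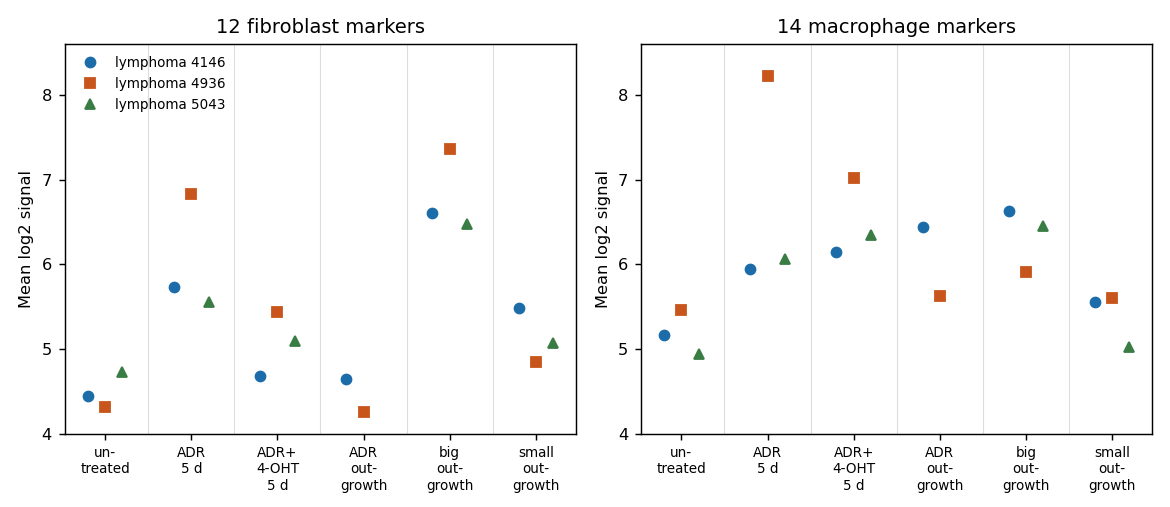
Mean log2 signal (vertical axis) of 12 fibroblast markers and of 14 macrophage markers on each array, by group (horizontal axis) and lymphoma (symbol). The fibroblast markers lie at 6.47 to 7.36 in big cells, above every array of the other groups except ADR 4936.

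Of 14 macrophage markers, all with a probe set, the mean was 5.91 to 6.63 in big cells, 5.02 to 5.60 in small cells and 4.94 to 5.46 in untreated cells. It was 5.94 to 8.22 after ADR and 6.14 to 7.02 after ADR with 4-OHT, with 6.44 (4146) and 5.62 (4936) in the ADR outgrowth. Of the 14, C1qa, C1qb, Mrc1 and Marco lay under 4.86 on every array of each group. On ADR 4936 others were high: Adgre1 was at 9.48 (4.70 in untreated 4936), Csf1r at 9.48 (5.70), Cd14 at 9.81 (3.92) and Itgam at 9.04 (4.88). Lyz2, the macrophage lysozyme, rose by 5.87 in ADR with 4-OHT against untreated cells (SE 1.15, adjusted p = 0.0272). A sign of RNA quality, the log2 difference between the 3′ and 5′ control probe sets of Actb, ran from 1.5 to 1.76 in big cells, 1.41 to 1.81 in small cells, 1.39 to 1.65 in untreated cells and 0.56 to 1.17 after ADR. It was 1.17 to 1.51 after ADR with 4-OHT and 1.26 to 1.33 in the ADR outgrowth. For Gapdh the groups overlapped, at 0.45 to 0.8 in big cells, 0.38 to 0.67 in small cells, 0.48 to 0.54 in untreated cells and 0.37 to 0.5 after ADR. The part of these markers and of RNA quality in the values of the 38 genes was not tested.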

How the data were processed

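Total RNA of 17 Affymetrix mouse genome arrays was analysed. The deposited values are log2 signals of 45101 probe sets, from -1.95 to 15.87, made by the authors with RMA and Partek, per the submitters' processing notes, which give no versions. In the deposited table the per-lymphoma medians of a probe set are equal for all of them (within 1e-06); the labels do not state that step. Read depth does not apply to arrays, where precision depends on how many there are. Gene names came from GEO's platform annotation: 34958 have 1 gene symbol, 932 several, and 9211 are not listed. Array pairs correlated between 0.9438 and 0.9926.

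Here limma 3.58.1 (R 4.3.3) fitted all 6 groups with lymphoma as a block, on 11897 genes at or above 4.86 in at least 3 arrays, taking the probe set of highest mean for each gene. p-values were adjusted by Benjamini-Hochberg over all of them, at 0.05. The pairing comes from the labels: arrays of the same lymphoma share a source. With the lymphoma medians removed, the correlation of deviations cannot check it (median -0.117 within and 0.0579 between lymphomas). Differences within a lymphoma remain: Xist was at 11.97 on ADR 4936 and 6.20 on untreated 4936. It was at 12.26 on big 5043, 12.07 on small 5043 and 6.27 on untreated 5043. Whether those arrays share the source that their labels give was not tested.

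The members and lists were chosen with earlier results of these data known. Values were given for the 2 highest and 2 lowest members of each comparison, for Ncl, Npm1, Fbl, Polr1a, Polr1b, Ubtf, Rrn3, Gnl3 and Myc, for up to 3 genes of each other list by p, and for the 5 non-members most like the set; further members were named after their values were seen. Alternatives changed the block, filter, scaling, probe set rule, variance model, array weights and arrays.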

Additional observations from a re-analysis of the deposited data

Results flagged for a closer look

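In 3 comparisons the median of the 38 genes had opposite signs in lymphomas 4146 and 4936, each beyond the median SE of a gene. The signs also differed for small minus untreated cells (-0.30 and 0.25) and big minus untreated cells (-0.63 and 0.02). There the value of 4936 was within that SE (0.26). Each lymphoma gave 1 array per group, so the difference between lymphomas was not tested.

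ADR with 4-OHT minus untreated cells was -0.33 in lymphoma 4146 and 0.40 in lymphoma 4936. ADR outgrowth minus untreated cells was -0.61 in 4146 and 0.89 in 4936. Small cells minus ADR outgrowth was 0.34 in 4146 and -0.63 in 4936. These comparisons share arrays: untreated 4936 was the lowest array of its lymphoma for the set (mean log2 signal 9.83), and ADR outgrowth 4936 the highest (10.74).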

How the results depend on the processing

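Of 279 counts of called members under alternatives, 268 were 0, as in the results given. In most comparisons no gene at all was called in the main fit, so a 0 there says little about the set. Of 248 medians, 247 moved by less than the SD of the medians per lymphoma. That limit is wide, at 0.37 for big and 1.06 for ADR outgrowth against untreated cells, and a change of sign can pass it. The medians of 4 comparisons changed sign when a lymphoma or an array was left out: they ran from -0.22 to 0.22 for ADR with 4-OHT against untreated cells, -0.63 to 0.71 for ADR outgrowth against untreated cells, -0.74 to 0.36 for small cells against ADR outgrowth and -0.42 to 0.02 for small against untreated cells. The calls that appeared were these. With no replicate block, the test over 6 groups called 4 of 38 (1157 of all genes), so the paired fit called fewer. With gene-by-gene array weights, big against untreated cells called 5 (Polr1a, Polr1b, Ncl, Utp20 and Ebna1bp2, all lower) and the test over 6 groups 14. With REML array weights, added after the data were seen, ADR with 4-OHT against untreated cells called 1 (Npm1), ADR with 4-OHT against ADR 3 (Fbl, Utp18 and Wdr12), big against untreated cells 9, and the test over 6 groups 26. The REML estimate of the weights stopped before convergence, which limits every count given for it. When a lymphoma or an array was left out, big against untreated cells called 0 to 3, the test over 6 groups 0 to 12, and the median for ADR against untreated cells ran from 0.04 to 0.42. The cause of these changes was not tested. Over those settings the medians ran from -0.65 to -0.25 for big against untreated cells, from -0.32 to -0.23 for big against small cells and from -0.33 to -0.09 for ADR with 4-OHT against ADR. Signal over background limits no member, since all 38 lay at or above the median signal on every array. Counts over all genes moved more: for ADR with 4-OHT against untreated cells 350 became 623 with no block, 212 with the mean over probe sets, 794 when ADR 4936, big 5043, small 5043 and ADR with 4-OHT 4146 were dropped, 1301 and 1583 with array weights (gene by gene and REML), and 0 to 546 on leaving out a lymphoma or an array. For big against untreated cells 49 became 112 with no block, 1117 and 1421 with array weights and 0 to 280. For the test over 6 groups 313 became 2843 and 4132 with array weights, 9 without the 3 arrays, 35 without those and ADR with 4-OHT 4146, and 0 to 1254. For ADR with 4-OHT against ADR 0 became 13 with no block, 521 and 1099 with array weights, and for big against small cells 30, 61 and 261.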

Other observations

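In ADR against untreated cells no gene of the lists outside the set was called, and no list was tested. Of 89 other ribosome assembly genes 71 lay above 0, with a median of 0.23, and 5.62% had an unadjusted p under 0.05, below the 11.3% of all genes. Myc targets outside ribosome assembly had 31 of 40 above 0, with a median of 0.21, and 15% had an unadjusted p under 0.05. The 7 mitosis genes all lay below 0, with a median of -0.67, and 3 had an unadjusted p under 0.05. In ADR with 4-OHT against ADR, 12.5% of all genes had an unadjusted p under 0.05 (586 higher and 904 lower), and the share was 22.5% of the 40 Myc targets, all 9 of them lower. In the same comparison 3 of the 9 genes of Myc and its dimer partners were higher at that level, and 6 of the 9 lay above 0.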
